A study of Mus musculus with 21 samples.

Results

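The Notch receptors, ligands and targets examined here are Notch1, Notch2, Notch3, Notch4, Dll1, Dll3, Jag1, Jag2, Hes1 and Hey1. They were taken by symbol from a deposited expression table of 16443 genes, in which 9 of these 10 genes have a row, and Dll3 was not analysed here. RNA sequencing was done on 2TS22C, a mouse embryonic stem cell line in which SOX2, a factor that keeps such cells pluripotent, can be silenced. In 3 rescue lines the labels give silenced endogenous SOX2, doxycycline (DOX) treatment and a lentivirus. The lentivirus carried miniSOX, for which the labels give no more than the name, SOX17FNV (called FNV here), an engineered variant of SOX17, which is known as an endoderm factor, or SOX2 itself. Non-transduced 2TS22C cells with the genotype label WT and no doxycycline listed (NTC) were the control, so a rescue line differs from them in the factor, the virus, the silencing and the doxycycline together. Every group was grown with serum and LIF, either with 2i (inhibitors of MEK and GSK3, called 2i here) or without (SL). In 2i there were 2 miniSOX, 4 FNV, 4 SOX2 and 3 NTC libraries, and in SL there were 2 libraries of each line. The labels do not say how many clones stand behind a line.

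Notch receptors are membrane proteins that bind Delta-like (Dll) and Jagged (Jag) ligands on neighbouring cells. Binding lets proteases release the receptor's intracellular part, which enters the nucleus, joins the DNA-binding protein RBPJ and a Mastermind coactivator, and turns on genes of the Hes and Hey families of transcriptional repressors. In embryonic stem cells the pathway is known mainly for its part in leaving the pluripotent state towards neural and other fates. Hes1 is also known to be driven by other pathways.

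All values are the authors' normalized, rounded values and have no unit. Library totals ran from 14044316 to 14047262, so sequencing depth is unknown and a 0 says only that a gene was listed at 0. The median value over all genes was 214 in NTC replicate 1 in 2i. The values allow comparison of a gene between libraries, not of levels between genes. The libraries came in 2 deposited sets, called waves: 12 in the first (replicates 1 and 2 of FNV, SOX2 and NTC in both media) and 9 in the second (5 libraries from 2i whose names start with p21 or p31, plus all miniSOX libraries). In SL, wave and miniSOX cannot be told apart except through a wave term that rests on the 2i libraries. No label says whether replicates 1 and 2 were separate cultures, so p-values measure the spread between these libraries, which may be technical. In 2i, Sox17 stood between 1792 and 3301 in FNV cells, as labelled. It stood at 1813 and 1953 in miniSOX cells, whose label does not name Sox17. Sox2 stood between 19 and 60 in all miniSOX and FNV libraries, against 533 to 2697 in all SOX2 and NTC libraries. Sox2 did not tell SOX2 from NTC cells in limma, described below (adjusted p = 0.211 in 2i and 0.238 in SL). Summed values of 8 pluripotency markers, all measured, lay between 45650 and 90063 in every library.

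**Figure D1:**
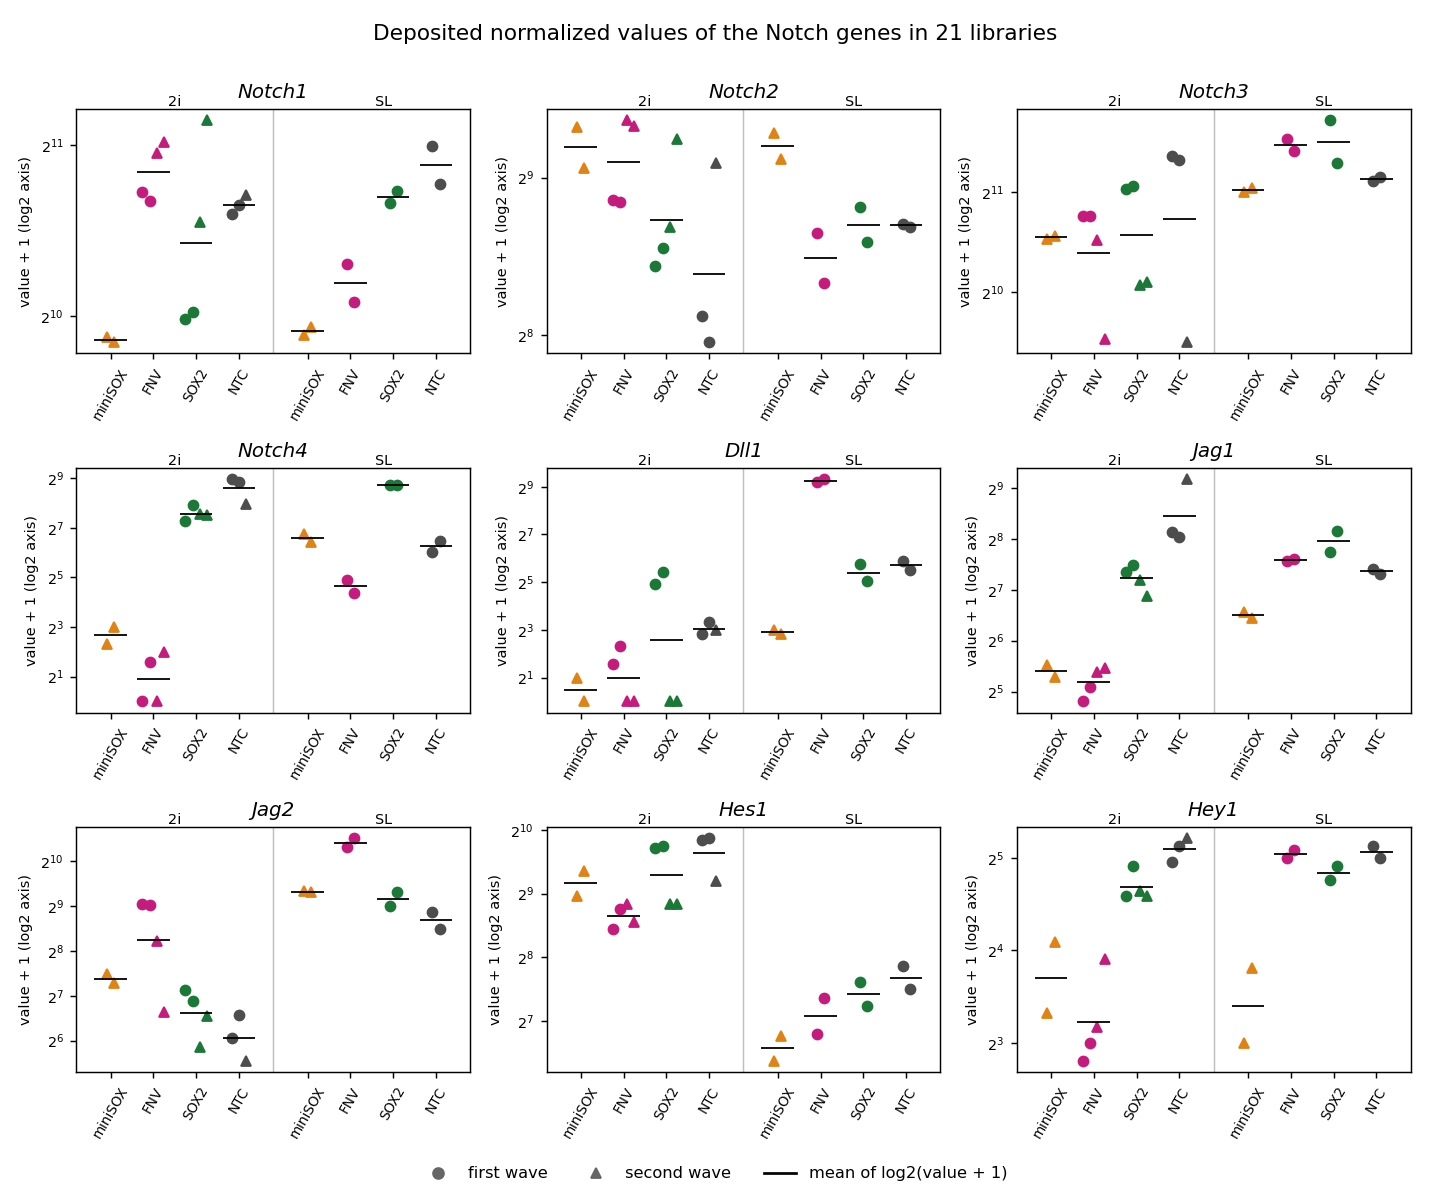
Values of the 9 measured Notch genes in each of the 21 libraries, on a log axis of value + 1, by line (miniSOX, FNV, SOX2, NTC) within 2i and within SL. Circles are libraries of the first wave, triangles those of the second, and lines are group means of log2(value + 1). Notch4 and Jag1 are low in the miniSOX and FNV libraries in 2i, and Dll1 is highest in the FNV libraries in SL.

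In 2i, the receptor Notch4, the ligand Jag1 and the target Hey1 were lower in miniSOX and in FNV cells than in NTC cells, and the ligand Jag2 was higher in both. Differences were tested with limma on log2(value + 1) in a model of all 21 libraries with group and wave, and a gene changed when its adjusted p (Benjamini-Hochberg over all 16443 genes) was under 0.05. On this scale the log2 change of genes with low values is understated. Against NTC in 2i, 1 member rose and 4 fell in miniSOX cells, where 27.7% of all genes changed. In FNV cells 2 rose and 4 fell, where 39.7% of all genes changed. In SOX2 cells 0 rose and 1 fell, where 28.7% of all genes changed. The members' median log2 change was -0.75 in miniSOX, -0.92 in FNV and -0.28 in SOX2 cells, and the median of all genes was between -0.01 and 0.02. These 3 comparisons share the same NTC libraries.

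Against SOX2 cells in 2i, 1 member rose and 4 fell in miniSOX cells, where 14.9% of all genes changed. In FNV cells 2 rose and 4 fell, where 25.2% of all genes changed. Between miniSOX and FNV cells in 2i, 1 member was higher and 1 lower in miniSOX cells, where 7.66% of all genes changed. In SL, the members against NTC gave 2 rises and 3 falls in miniSOX cells beside 19.6% of all genes. They gave 2 rises and 2 falls in FNV cells beside 30.0%, and 1 rise and 0 falls in SOX2 cells beside 15.0%. Against SOX2 cells in SL, 0 members rose and 3 fell in miniSOX cells beside 21.6% of all genes, and 2 rose and 1 fell in FNV cells beside 21.4%. In SL, 1 member was higher and 4 were lower in miniSOX than in FNV cells, beside 15.2% of all genes.

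Where replicates 1 and 2 of the first wave are averaged into 1 library each, since the titles of the second wave count biological replicates from 2 upwards, 26 of the 78 member calls made in all 19 comparisons pass. Among those that pass are the falls of Notch4 and Jag1 in miniSOX and FNV cells in 2i against both NTC and SOX2 cells. For the comparisons between lines in SL this fit leaves 1 call. Without the wave term 52 of the 78 calls pass in the same direction, and in the second wave alone 14 of the 29 it can test.

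**Figure D2:**
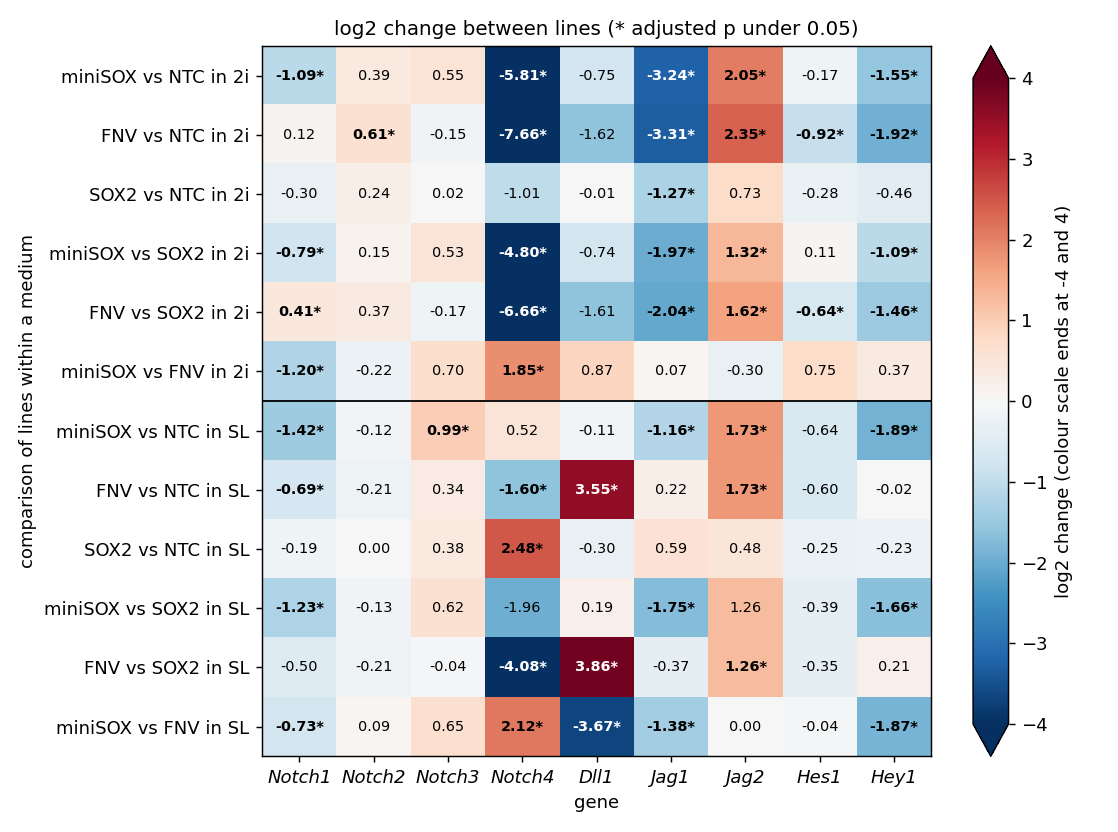
Heat map of the log2 change on log2(value + 1) for each measured Notch gene (columns) in the 12 comparisons between lines (rows), within 2i above and within SL below, colour giving the log2 change and an asterisk an adjusted p under 0.05. Notch4 ranges from -7.66 in FNV against NTC cells in 2i to 2.48 in SOX2 against NTC cells in SL.

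In the GENCODE annotation, genes on the opposite strand overlap Notch1 (0610009E02Rik and Gm13568), Notch3 (Gm17276), Notch4 (Gm20462) and Dll1 (A930024N18Rik). None of these overlapping genes is in the table, and whether counting took strand into account is not stated, so reads of each pair cannot be told apart.

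Notch4, a receptor known best from the endothelium (ENSMUSG00000015468, chromosome 17, 34564268 to 34588503, plus strand, mm10), had the largest differences of the 4 receptors. In 2i it stood at 4 and 7 in miniSOX cells, at 0, 2, 0 and 3 in FNV cells, at 152, 238, 185 and 182 in SOX2 cells, and at 497, 463 and 247 in NTC cells. All miniSOX and FNV libraries lay below all SOX2 libraries, and these below all NTC libraries. Against NTC cells, Notch4 fell in miniSOX cells (log2 change -5.81 ± 0.57 (SE), adjusted p = 5.65e-06) and in FNV cells (-7.66 ± 0.44, adjusted p = 1.22e-08). Against SOX2 cells it also fell in miniSOX (-4.80 ± 0.53, adjusted p = 4.51e-05) and FNV cells (-6.66 ± 0.41, adjusted p = 7.15e-08). These 4 falls passed whichever library was left out, and within each wave that holds both lines. The fall in FNV against NTC cells was -8.12 in the first wave and -6.95 in the second. With a pseudocount of 10 in place of 1 it was -5.11. SOX2 cells did not pass against NTC cells (-1.01 ± 0.44, adjusted p = 0.105), with a 95% interval of -1.95 to -0.06. MiniSOX cells had more Notch4 than FNV cells (1.85 ± 0.53, adjusted p = 0.0451), but this call was lost without FNV replicate 1, FNV p21 or either miniSOX library (log2 change 1.43 to 2.48, adjusted p up to 0.295).

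The order of the lines was not the same in SL. There Notch4 stood at 108 and 84 in miniSOX cells, at 29 and 20 in FNV cells, at 424 and 424 in SOX2 cells and at 65 and 87 in NTC cells. FNV libraries were the lowest and SOX2 libraries the highest, while miniSOX and NTC libraries overlapped. SOX2 cells were higher than NTC cells (2.48 ± 0.57, adjusted p = 0.00989), a call lost without NTC replicate 1 or either SOX2 library (2.27 to 2.69, adjusted p up to 0.0776). FNV cells were lower than SOX2 cells (-4.08 ± 0.57, adjusted p = 0.000225), which passed whichever library was left out. FNV cells were lower than NTC cells (-1.60 ± 0.57, adjusted p = 0.0473) and miniSOX cells higher than FNV cells (2.12 ± 0.67, adjusted p = 0.0467), and each of these calls was lost whichever of its 4 libraries was left out (adjusted p 0.0809 to 0.217 and 0.0852 to 0.171). MiniSOX cells did not pass against NTC (0.52 ± 0.67, adjusted p = 0.657) or SOX2 cells (-1.96 ± 0.67, adjusted p = 0.0503). Both miniSOX libraries lay below both SOX2 libraries, and without the wave term that change was -2.14 and passed (adjusted p = 0.0189).

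Notch1, a receptor present in most tissues (ENSMUSG00000026923, chromosome 2, 26457903 to 26516663, minus strand), was lower in miniSOX cells in both media. It stood at 940 and 921 in miniSOX cells, at 1694, 1632, 1981 and 2074 in FNV cells, at 1014, 1040, 1502 and 2268 in SOX2 cells and at 1546, 1609 and 1674 in NTC cells in 2i. In SL it stood at 947 and 979 in miniSOX cells, at 1265 and 1086 in FNV cells, at 1621 and 1701 in SOX2 cells and at 2038 and 1749 in NTC cells. In both media the miniSOX libraries lay below those of every other line. In 2i, miniSOX cells were lower than NTC (-1.09 ± 0.19, adjusted p = 0.000788), FNV (-1.20 ± 0.18, adjusted p = 0.00247) and SOX2 cells (-0.79 ± 0.18, adjusted p = 0.00859). The last of these calls was lost without either miniSOX library (adjusted p up to 0.0716), and without the wave term it was -0.56 (adjusted p = 0.157). Within the second wave alone, miniSOX cells passed against SOX2 cells (-0.99, adjusted p = 0.0354) but not against NTC (-0.85, adjusted p = 0.052) or FNV cells (-1.12, adjusted p = 0.0734). In SL, miniSOX cells were lower than NTC (-1.42 ± 0.23, adjusted p = 0.000679) and SOX2 cells (-1.23 ± 0.23, adjusted p = 0.00165). Without the wave term the change against NTC in SL was -0.97 and still passed, whereas that against SOX2 cells was -0.79 and did not (adjusted p = 0.0612).

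FNV cells had higher Notch1 than SOX2 cells in 2i (0.41 ± 0.14, adjusted p = 0.0373), although the libraries of the 2 lines overlapped. The call was lost on leaving out any of 6 of the 8 libraries, all but FNV p21 and SOX2 p31 (0.33 to 0.60, adjusted p up to 0.133). The change was 0.69 in the first wave and 0.14 in the second (adjusted p = 0.767). In SL, FNV cells were lower than NTC cells (-0.69 ± 0.19, adjusted p = 0.015), a call lost without NTC replicate 1 or FNV replicate 2 (-0.80 to -0.58, adjusted p up to 0.114) and without the wave term (adjusted p = 0.0858). MiniSOX cells were lower than FNV cells (-0.73 ± 0.23, adjusted p = 0.0427), a call lost whichever of the 4 libraries was left out (adjusted p 0.0628 to 0.179). That change was -0.28 without the wave term (adjusted p = 0.542).

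Notch2 and Notch3, the other two receptors, gave 1 call each between lines. In 2i, Notch2 (ENSMUSG00000027878, chromosome 3, 98013527 to 98150361, plus strand) stood at 639 and 534 in miniSOX cells, 463, 459, 659 and 641 in FNV cells, 346, 374, 411 and 605 in SOX2 cells and 277, 247 and 546 in NTC cells. In SL it stood at 623 and 554 in miniSOX cells, 400 and 321 in FNV cells, 448 and 384 in SOX2 cells and 417 and 411 in NTC cells. Its only call between lines was the rise in FNV against NTC cells in 2i (0.61 ± 0.15, adjusted p = 0.00394), where the groups overlapped. That change was 0.82 in the first wave and 0.25 in the second. In SL both miniSOX libraries of Notch2 lay above all others without a call. Their log2 change was -0.12 against NTC cells with the wave term (adjusted p = 0.764) and 0.50 without it (adjusted p = 0.301).

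Notch3 (ENSMUSG00000038146, chromosome 17, 32120820 to 32166852, minus strand) gave its call in SL. In 2i it stood at 1483 and 1516 in miniSOX cells, 1737, 1742, 1471 and 738 in FNV cells, 2093, 2138, 1079 and 1099 in SOX2 cells and 2635, 2566 and 724 in NTC cells. In SOX2, FNV and NTC cells every second-wave library lay below both first-wave libraries of Notch3. In SL it stood at 2054 and 2112 in miniSOX cells, 2954 and 2716 in FNV cells, 3376 and 2503 in SOX2 cells and 2209 and 2268 in NTC cells. The FNV and SOX2 libraries in SL lay above the NTC libraries without a call (0.34 ± 0.28, adjusted p = 0.407, and 0.38 ± 0.28, adjusted p = 0.4), and both passed within the first wave alone (adjusted p = 0.0482 and 0.0451). MiniSOX cells passed as higher than NTC cells in SL (0.99 ± 0.33, adjusted p = 0.0474), although both miniSOX libraries were below both NTC libraries. That sign comes from the wave term: without it the log2 change was -0.10 (adjusted p = 0.94). The call was also lost whichever of the 4 libraries was left out (adjusted p 0.113 to 0.14).

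Of the ligands, Jag1 (ENSMUSG00000027276, chromosome 2, 137081456 to 137116644, minus strand) was lower in all 3 rescue lines than in NTC cells in 2i. It stood at 45 and 38 in miniSOX cells, at 27, 33, 41 and 43 in FNV cells, at 163, 179, 145 and 116 in SOX2 cells and at 280, 262 and 575 in NTC cells. The miniSOX and FNV libraries overlapped, and both lines lay below the SOX2 libraries, which lay below the NTC libraries. Against NTC cells, Jag1 fell in miniSOX (-3.24 ± 0.30, adjusted p = 2.72e-06), FNV (-3.31 ± 0.23, adjusted p = 6.35e-08) and SOX2 cells (-1.27 ± 0.23, adjusted p = 0.000921). Against SOX2 cells it fell in miniSOX (-1.97 ± 0.27, adjusted p = 0.000274) and FNV cells (-2.04 ± 0.21, adjusted p = 7.75e-06). These 5 falls passed whichever library was left out, and within each wave that holds both lines. The fall in SOX2 against NTC cells was -0.66 in the first wave and -2.14 in the second, where NTC has 1 library, with the highest value. MiniSOX and FNV cells differed by 0.07 ± 0.27 (adjusted p = 0.916), with a 95% interval of -0.51 to 0.65.

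In SL, Jag1 stood at 94 and 86 in miniSOX cells, 189 and 193 in FNV cells, 214 and 284 in SOX2 cells and 169 and 158 in NTC cells. MiniSOX libraries were below all others, and they were lower than SOX2 cells by the test (-1.75 ± 0.35, adjusted p = 0.00276). The falls in miniSOX cells against NTC (-1.16 ± 0.35, adjusted p = 0.0299) and FNV cells (-1.38 ± 0.35, adjusted p = 0.016) were each lost whichever of the 4 libraries was left out (adjusted p 0.0743 to 0.111 and 0.0524 to 0.071). Neither FNV (0.22 ± 0.30, adjusted p = 0.624) nor SOX2 cells (0.59 ± 0.30, adjusted p = 0.197) passed against NTC cells in SL.

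Jag2, the other Jagged ligand (ENSMUSG00000002799, chromosome 12, 112907819 to 112929776, minus strand), went the other way from Jag1 in miniSOX and FNV cells in 2i. It stood at 177 and 155 in miniSOX cells, at 530, 519, 298 and 98 in FNV cells, at 139, 118, 57 and 93 in SOX2 cells and at 66, 94 and 46 in NTC cells. The p31 library of FNV cells was far below the other 3 and inside the range of SOX2 cells. Jag2 rose against NTC cells in miniSOX (2.05 ± 0.40, adjusted p = 0.00161) and FNV cells (2.35 ± 0.31, adjusted p = 2.94e-05), and in FNV against SOX2 cells (1.62 ± 0.28, adjusted p = 0.000731). These 3 rises passed whichever library was left out. Without the wave term the rise in miniSOX against NTC cells was 1.32 and did not pass (adjusted p = 0.114). Within the second wave alone none of the 3 passed (1.83, 1.87 and 1.22, adjusted p 0.0967 to 0.263). MiniSOX cells were also higher than SOX2 cells (1.32 ± 0.37, adjusted p = 0.0257), a call lost without SOX2 p21 or either miniSOX library (adjusted p up to 0.161). This change was 0.77 without the wave term (adjusted p = 0.401).

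In SL, Jag2 stood at 642 and 634 in miniSOX cells, 1278 and 1452 in FNV cells, 511 and 636 in SOX2 cells and 469 and 358 in NTC cells. FNV libraries were above all others, and miniSOX libraries were above NTC libraries. FNV cells were higher than NTC cells (1.73 ± 0.40, adjusted p = 0.00472), and this passed whichever library was left out but not without the wave term (adjusted p = 0.0574). Their rise over SOX2 cells (1.26 ± 0.40, adjusted p = 0.0371) was lost whichever of the 4 libraries was left out (adjusted p 0.0816 to 0.17). MiniSOX cells were higher than NTC cells (1.73 ± 0.47, adjusted p = 0.0181), a call lost without NTC replicate 2 or either miniSOX library (adjusted p up to 0.0858), and 0.64 without the wave term (adjusted p = 0.498).

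Dll1, the only Delta-like ligand with a row (ENSMUSG00000014773, chromosome 17, 15367354 to 15376872, minus strand), was high in a single group. In SL it stood at 7 and 6 in miniSOX cells, at 585 and 637 in FNV cells, at 53 and 32 in SOX2 cells and at 58 and 45 in NTC cells. FNV libraries were above all others and miniSOX libraries below all others. FNV cells were higher than NTC (3.55 ± 0.98, adjusted p = 0.0137) and SOX2 cells (3.86 ± 0.98, adjusted p = 0.0121), and miniSOX cells were lower than FNV cells (-3.67 ± 1.15, adjusted p = 0.0445). The call against NTC cells was lost whichever of the 4 libraries was left out (3.37 to 3.73, adjusted p 0.0532 to 0.0732). Against SOX2 cells the call was lost without FNV replicate 1, FNV replicate 2 or SOX2 replicate 2 (3.50 to 4.21, adjusted p up to 0.0793), and the call of miniSOX against FNV cells whichever library was left out (-3.76 to -3.57, adjusted p 0.121 to 0.138). Within the first wave, FNV against SOX2 and NTC cells in SL passed. Without the wave term these 2 calls were lost (adjusted p = 0.107 and 0.109), whereas the change in miniSOX against FNV cells was -6.35 (adjusted p = 0.01).

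In 2i, Dll1 was low everywhere: 1 and 0 in miniSOX cells, 2, 4, 0 and 0 in FNV cells, 29, 42, 0 and 0 in SOX2 cells and 6, 9 and 7 in NTC cells. Both SOX2 libraries at 0 were second-wave libraries, and the first-wave SOX2 libraries were above all others. No comparison between lines in 2i passed in the model of both waves (adjusted p 0.106 to 0.998). Within the first wave FNV cells were lower than SOX2 (-3.21, adjusted p = 0.000231) and NTC cells (-1.11, adjusted p = 0.032), and SOX2 cells were higher than NTC cells (2.10, adjusted p = 0.00208). Within the second wave the change in SOX2 against NTC cells was -3 (adjusted p = 0.202).

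Among the targets, Hey1 (ENSMUSG00000040289, chromosome 3, 8663359 to 8667256, minus strand) had low values throughout and fell in miniSOX cells in both media. In 2i it stood at 9 and 16 in miniSOX cells, 6, 7, 8 and 14 in FNV cells, 23, 29, 24 and 23 in SOX2 cells and 30, 34 and 36 in NTC cells. In SL it stood at 7 and 13 in miniSOX cells, 31 and 33 in FNV cells, 26 and 29 in SOX2 cells and 34 and 31 in NTC cells. In 2i both miniSOX and FNV libraries lay below all SOX2 and NTC libraries, and in SL the miniSOX libraries did while FNV libraries did not. Against NTC cells in 2i, Hey1 fell in FNV cells (-1.92 ± 0.28, adjusted p = 7.55e-05), with -1.24 at a pseudocount of 10. It also fell in miniSOX cells (-1.55 ± 0.36, adjusted p = 0.00531), a call lost without miniSOX replicate 1 (adjusted p = 0.0729). FNV cells were lower than SOX2 cells (-1.46 ± 0.25, adjusted p = 0.000742), and miniSOX cells were lower than SOX2 cells (-1.09 ± 0.33, adjusted p = 0.0384). This last call was lost without SOX2 replicate 1, 2 or p21 or miniSOX replicate 1 (adjusted p up to 0.353). Within the second wave alone none of the 4 passed: FNV cells gave -1.67 against NTC (adjusted p = 0.108) and -1.08 against SOX2 cells (adjusted p = 0.289), and miniSOX cells had adjusted p = 0.139 and 0.312. With first-wave replicates averaged, FNV against SOX2 cells gave -1.33 (adjusted p = 0.0594).

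In SL, Hey1 fell in miniSOX cells against NTC (-1.89 ± 0.42, adjusted p = 0.00627), FNV (-1.87 ± 0.42, adjusted p = 0.00881) and SOX2 cells (-1.66 ± 0.42, adjusted p = 0.0123). Without miniSOX replicate 1 none of these 3 passed (-1.49, -1.47 and -1.25, adjusted p 0.053 to 0.0897), and the last was also lost without SOX2 replicate 2 (adjusted p = 0.0552). FNV cells in SL differed from NTC cells by -0.02 ± 0.36 (adjusted p = 0.997), with a 95% interval of -0.79 to 0.75.

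Hes1 (ENSMUSG00000022528, chromosome 16, 30064384 to 30067796, plus strand) differed more between the media than between the lines. In 2i it stood at 499 and 654 in miniSOX cells, 347, 431, 454 and 376 in FNV cells, 839, 862, 458 and 456 in SOX2 cells and 921, 932 and 589 in NTC cells. In SL it stood at 82 and 108 in miniSOX cells, 110 and 163 in FNV cells, 195 and 150 in SOX2 cells and 231 and 180 in NTC cells. FNV libraries in 2i lay below all SOX2 and NTC libraries, by a narrow margin for second-wave SOX2 libraries. Against NTC cells in 2i Hes1 fell in FNV cells (-0.92 ± 0.21, adjusted p = 0.00321), by -1.26 in the first wave and -0.51 in the second (adjusted p = 0.2). Against SOX2 cells it fell in FNV cells (-0.64 ± 0.20, adjusted p = 0.0265), a call lost without FNV replicate 1 or 2 or SOX2 replicate 1 or 2 (adjusted p up to 0.104). That change was -1.13 in the first wave and -0.15 in the second (adjusted p = 0.765). No comparison of Hes1 between lines in SL passed (adjusted p 0.119 to 0.958), although both miniSOX libraries lay below those of every other line. Without the wave term, miniSOX cells passed as lower than NTC cells in SL (-1.11, adjusted p = 0.0318).

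**Figure D3:**
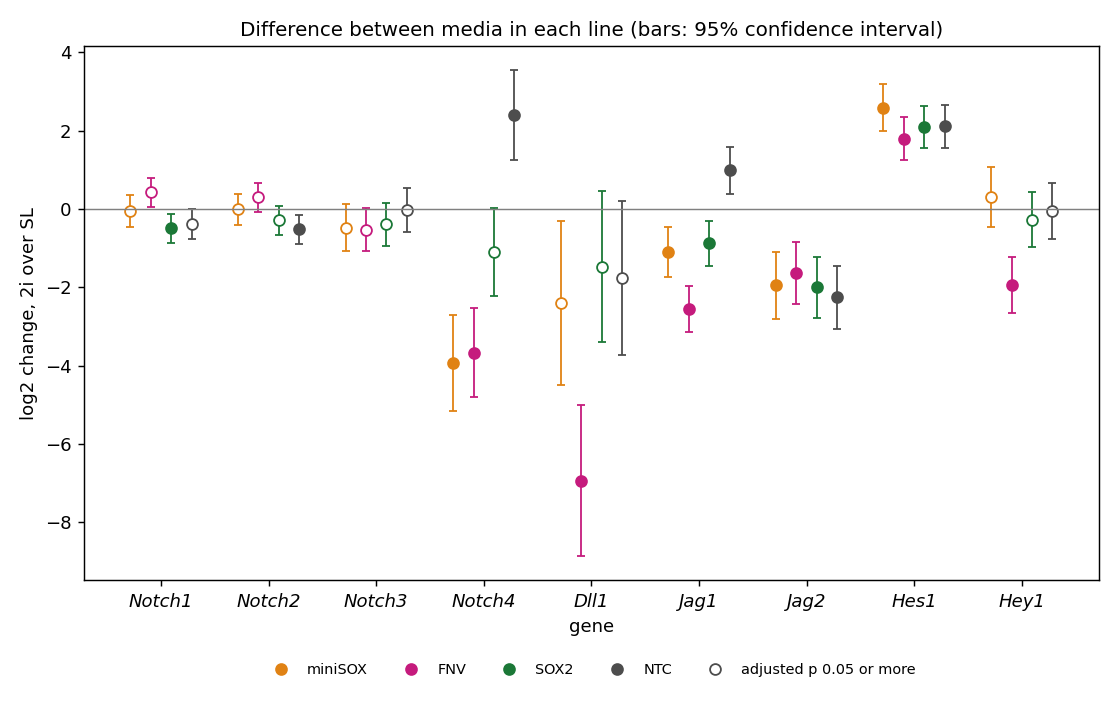
Log2 change on log2(value + 1) of 2i over SL for each measured Notch gene in each line, with 95% confidence intervals from limma. Filled points have an adjusted p under 0.05. Hes1 is above 0 and Jag2 below 0 in all 4 lines, whereas Notch4 and Jag1 are above 0 in NTC cells and below 0 in miniSOX and FNV cells.

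The media were compared within each line, and Hes1 and Jag2 moved alike in all of them. Between 2i and SL, 1 member rose and 3 fell in miniSOX cells, where 33.4% of all genes changed. In FNV cells 1 rose and 5 fell beside 40.6% of all genes, in SOX2 cells 1 rose and 3 fell beside 44.9%, and in NTC cells 3 rose and 2 fell beside 24.6%. Hes1 was higher in 2i in miniSOX (2.59 ± 0.28, adjusted p = 5.97e-06), FNV (1.80 ± 0.25, adjusted p = 5.35e-05), SOX2 (2.09 ± 0.25, adjusted p = 1.48e-05) and NTC cells (2.12 ± 0.26, adjusted p = 4.54e-05). These 4 rises of Hes1 passed whichever library was left out and under all other alternatives, and no 2i library overlapped the SL libraries of its line. Jag2 was lower in 2i in miniSOX (-1.94 ± 0.40, adjusted p = 0.00175), FNV (-1.63 ± 0.37, adjusted p = 0.00239), SOX2 (-2.0 ± 0.37, adjusted p = 0.000488) and NTC cells (-2.25 ± 0.37, adjusted p = 0.00058). These 4 falls of Jag2 too passed whichever library was left out, but with first-wave replicates averaged those in FNV, SOX2 and NTC cells were lost.

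Notch4 and Jag1 differed between the media in opposite directions in different lines. Notch4 was lower in 2i in miniSOX (-3.93 ± 0.57, adjusted p = 0.000108) and FNV cells (-3.66 ± 0.53, adjusted p = 6.35e-05) and higher in 2i in NTC cells (2.40 ± 0.54, adjusted p = 0.00465). The rise in NTC cells was lost without NTC replicate 1 in SL (adjusted p = 0.0533). SOX2 cells did not pass for Notch4 (-1.09 ± 0.53, adjusted p = 0.107). Jag1 was lower in 2i in miniSOX (-1.10 ± 0.30, adjusted p = 0.00989), FNV (-2.55 ± 0.27, adjusted p = 3.9e-06) and SOX2 cells (-0.88 ± 0.27, adjusted p = 0.0169) and higher in NTC cells (0.99 ± 0.28, adjusted p = 0.0176). The calls of Jag1 in miniSOX cells (without miniSOX replicate 1 in SL or 2 in 2i), SOX2 cells (without SOX2 replicate 2 in SL) and NTC cells (without either SL library) were lost, with adjusted p up to 0.0742, 0.149 and 0.095. In FNV cells, Dll1 (-6.94 ± 0.90, adjusted p = 2.51e-05) and Hey1 (-1.94 ± 0.33, adjusted p = 0.000284) were also lower in 2i. Dll1 passed in no other line, although in miniSOX and NTC cells too every 2i library lay below both SL libraries. In SOX2 cells the libraries of Dll1 overlapped between media.

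Smaller differences between media were seen for Notch1 and Notch2. Notch3 passed between media in no line, although in miniSOX, FNV and SOX2 cells every 2i library lay below both SL libraries. In FNV cells every 2i library of Notch1 lay above both SL libraries without a call. Without the wave term this rise of Notch1 in 2i passed in limma (0.65, adjusted p = 0.0414). Notch1 was lower in 2i in SOX2 cells (-0.49 ± 0.18, adjusted p = 0.0349), where the libraries overlapped and the call was lost on leaving out any of 5 of the 6 libraries, all but SOX2 p31 (adjusted p up to 0.144). Notch2 was lower in 2i in NTC cells (-0.52 ± 0.18, adjusted p = 0.0447), where the libraries overlapped and the call was lost on leaving out any of the 4 first-wave libraries (adjusted p up to 0.189).

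Whether a line's difference was the same in both media was tested as the change in 2i minus the change in SL. For FNV against NTC cells 2 members had a higher and 4 a lower change in 2i, beside 25.8% of all genes. For FNV against SOX2 cells 1 was higher and 4 were lower beside 20.8%, and for SOX2 against NTC cells 0 were higher and 2 lower beside 18.8%. The change of Notch4 was lower in 2i for FNV against NTC (-6.06 ± 0.72, adjusted p = 3.61e-05), FNV against SOX2 (-2.58 ± 0.70, adjusted p = 0.0181) and SOX2 against NTC cells (-3.49 ± 0.72, adjusted p = 0.00428). The difference for FNV against SOX2 cells was lost without FNV replicate 1 or either SOX2 library in SL (adjusted p up to 0.0709) and was -0.47 with a pseudocount of 10. For Jag1 it was -3.54 ± 0.37 for FNV against NTC (adjusted p = 1.3e-05), -1.67 ± 0.36 for FNV against SOX2 (adjusted p = 0.00501) and -1.86 ± 0.37 for SOX2 against NTC cells (adjusted p = 0.00351). For Dll1 it was -5.17 ± 1.24 for FNV against NTC (adjusted p = 0.00674) and -5.46 ± 1.20 for FNV against SOX2 cells (adjusted p = 0.00549). Both differences of Dll1 were lost without the wave term (adjusted p = 0.0512 and 0.0658) and with first-wave replicates averaged (adjusted p = 0.129 and 0.211). Hey1 gave -1.89 ± 0.46 for FNV against NTC (adjusted p = 0.00687) and -1.67 ± 0.44 for FNV against SOX2 cells (adjusted p = 0.0153), the last lost without FNV replicate 2 or SOX2 replicate 1 in SL (adjusted p up to 0.0603).

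The 2 receptors that went the other way in this test were Notch1 and Notch2. Notch1 gave 0.80 ± 0.24 for FNV against NTC (adjusted p = 0.0249) and 0.92 ± 0.24 for FNV against SOX2 cells (adjusted p = 0.0134). Without NTC p31 in 2i or NTC replicate 1 or FNV replicate 2 in SL the first was lost (adjusted p up to 0.111), and without FNV replicate 2 or SOX2 replicate 2 in SL the second was lost (adjusted p up to 0.0732). Notch2 gave 0.81 ± 0.24 for FNV against NTC cells (adjusted p = 0.0208), lost without either NTC library or FNV replicate 2 in SL (adjusted p up to 0.11). None of these 3 differences passed without the wave term (adjusted p = 0.0904, 0.0872 and 0.144).

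The level of Sox17 also differed between media in FNV and miniSOX cells. Sox17 stood at 3160, 3301, 1792 and 2659 in FNV cells in 2i, against 13693 and 30391 in FNV cells in SL, and at 1813 and 1953 in miniSOX cells in 2i, against 4179 and 4138 in miniSOX cells in SL. In SOX2 cells, Sox2 did not pass between media in limma (0.04 ± 0.38, adjusted p = 0.945). In NTC cells, Sox2 was higher in 2i than in SL (1.35 ± 0.38, adjusted p = 0.0186), and the libraries of the media did not overlap. The part of these levels in the Notch results was not tested.

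Markers of other cell types also moved with line and medium. Trophectoderm markers (8 of 8 measured) summed to 4792 to 7157 in FNV cells in 2i, 2229 to 2459 in miniSOX cells, 277 to 1287 in SOX2 cells and 774 to 2386 in NTC cells. In SL they summed to 15040 to 15357 in miniSOX cells, 1416 to 1525 in FNV cells, where Cdx2 was listed at 0, 1401 to 2035 in SOX2 cells and 8780 to 8787 in NTC cells. Extraembryonic endoderm markers (5 of 8 measured) summed to 4987 to 5165 in miniSOX and 7137 to 7387 in FNV cells in 2i, against 1762 to 3559 in SOX2 and 2623 to 2851 in NTC cells, and to between 1086 and 2219 in all SL libraries. Endothelial markers (6 of 10 measured), of interest for Notch4, summed to 3754 to 3769 in miniSOX, 2786 to 3818 in FNV, 3196 to 5578 in SOX2 and 2473 to 3824 in NTC cells in 2i. In SL they summed to 3794 to 4024 in FNV cells and between 1641 and 2196 in the other lines. Fibroblast markers (7 of 8 measured) summed to 57 to 206 in all 2i libraries and to 1738 to 1909 in miniSOX, 868 to 930 in FNV, 249 to 292 in SOX2 and 519 to 574 in NTC cells in SL. Neuroectoderm markers (4 of 8 measured) lay between 101 and 1240 in all libraries, with Fabp7 listed at 0 in 5 of the 8 groups. The part of such cells in the Notch results was not tested, and in bulk RNA fewer cells that carry a transcript cannot be told apart from less of it per cell.

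Of 64 other genes of the pathway, listed by role, 54 were measured. Against NTC cells in 2i, 6 rose and 11 fell in miniSOX cells, 8 rose and 14 fell in FNV cells, and 7 rose and 13 fell in SOX2 cells. These are 31.5%, 40.7% and 37.0% of the list, beside the 27.7%, 39.7% and 28.7% of all genes given above. Against NTC cells in SL, 5 rose and 8 fell in miniSOX, 1 rose and 12 fell in FNV and 1 rose and 7 fell in SOX2 cells. These are 24.1%, 24.1% and 14.8% of the list, beside 19.6%, 30.0% and 15.0% of all genes. Between 2i and SL, 15 rose and 8 fell in miniSOX cells, 22 rose and 8 fell in FNV cells, 18 rose and 11 fell in SOX2 cells and 8 rose and 6 fell in NTC cells. These are 42.6%, 55.6%, 53.7% and 25.9% of the list, beside 33.4%, 40.6%, 44.9% and 24.6% of all genes. Of the 10 genes of receptor cleavage and maturation, 4 rose and 0 fell in 2i against SL in miniSOX cells, 6 rose and 0 fell in FNV cells, 7 rose and 1 fell in SOX2 cells and 2 rose and 0 fell in NTC cells, which is 40%, 60%, 80% and 20% of them beside the same shares of all genes.

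Dner, a Notch ligand-like membrane protein of neurons, was lower in every rescue line than in NTC cells in 2i. It averaged 3 ± 1.41 in miniSOX, 3.5 ± 2.38 in FNV and 20 ± 5.35 in SOX2 cells, against 138 ± 73.0 in NTC cells (SD, n = 2, 4, 4 and 3). Its log2 change against NTC cells in limma was -4.49 ± 0.71 (SE) in miniSOX (adjusted p = 0.000331), -4.81 ± 0.55 in FNV (adjusted p = 7.95e-06) and -2.45 ± 0.55 in SOX2 cells (adjusted p = 0.00414). The fall in SOX2 cells was lost with a pseudocount of 0.1 (adjusted p = 0.0623) and with first-wave replicates averaged (adjusted p = 0.119), and in the second wave alone none of the 3 passed (adjusted p 0.0846 to 0.453). In SL Dner also fell against NTC cells in miniSOX (-3.33 ± 0.84, adjusted p = 0.0121) and FNV cells (-3.64 ± 0.71, adjusted p = 0.00153), and SOX2 cells did not pass (-2.14 ± 0.71, adjusted p = 0.057). Dner averaged 2 in miniSOX and in FNV cells in SL, against 36.5 in NTC cells. Both falls were lost with first-wave replicates averaged. That in miniSOX cells was also lost without NTC replicate 1 (-3.23) or miniSOX replicate 2 (-2.17) in SL. Furin, a protease that processes the receptor during maturation, was higher against NTC cells in 2i in miniSOX (1.43 ± 0.18, adjusted p = 4.69e-05), FNV (1.52 ± 0.14, adjusted p = 8.94e-07) and SOX2 cells (0.99 ± 0.14, adjusted p = 0.000137). Maml2, a Mastermind coactivator, was lower in FNV than in SOX2 cells in 2i (-0.96 ± 0.20, adjusted p = 0.00332) and in SL (-1.97 ± 0.29, adjusted p = 0.000324). It was also lower in miniSOX than in SOX2 cells in 2i (-0.91 ± 0.27, adjusted p = 0.0316) and in SL (-1.97 ± 0.34, adjusted p = 0.00106), both lost without the wave term (adjusted p = 0.364 and 0.0507). In 2i the libraries of Maml2 overlapped, and the call was also lost without SOX2 p21 or p31 (adjusted p = 0.0684 and 0.056). That change was -1.18 without miniSOX replicate 1 and -0.65 without miniSOX replicate 2. In FNV cells the fringe enzymes Lfng (-3.55 ± 0.90, adjusted p = 0.00533) and Mfng (-3.08 ± 0.51, adjusted p = 0.000207), which add sugars to the receptor, were lower in 2i than in SL, and Mfng was also lower in 2i in NTC cells (-2.59 ± 0.52, adjusted p = 0.00217). Means in 2i were low, at 4.25 for Lfng and 3.75 for Mfng in FNV cells and 2.33 for Mfng in NTC cells. With first-wave replicates averaged, the falls of Lfng in FNV cells (-3.75) and of Mfng in NTC cells (-2.67) were lost.

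The corepressors Spen (-1.07 ± 0.14, adjusted p = 5.86e-05) and Tle1 (-1.01 ± 0.17, adjusted p = 0.000563) were lower in FNV than in NTC cells in SL. Tle1 was lower there in miniSOX (-2.02 ± 0.20, adjusted p = 1.45e-05) and SOX2 cells too (-0.76 ± 0.17, adjusted p = 0.00881), the last lost without the wave term (adjusted p = 0.0718). Spen did not pass against NTC cells in SL in miniSOX (0.02 ± 0.16, adjusted p = 0.95) or SOX2 cells (-0.30 ± 0.14, adjusted p = 0.16). In 2i Spen was lower than in NTC cells in miniSOX (-0.79 ± 0.14, adjusted p = 0.000693), FNV (-0.72 ± 0.11, adjusted p = 9.28e-05) and SOX2 cells (-0.52 ± 0.11, adjusted p = 0.00247).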

How the data were processed

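Poly(A) RNA of 21 libraries was sequenced, and the submitters' processing notes name RSEM, Bowtie2 2.0 and the mm10 genome. The deposited numbers are handled as a score. They are whole and follow a common distribution (sorted, libraries differ by 3 or less at any rank, and 66.3% of ranks are identical throughout), so the authors had normalized and rounded them. Neither the normalization software nor the use of strand in counting is stated. Because totals were made equal, depth is unknown and no counting interval was computed.

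Groups come from the labels. Of the 21 columns, 16 matched 1 sample by name, and the 5 whose names start with p21 or p31 matched no more than a group and are replicates without a number. Tests used limma 3.58.1 (R 4.3.3) with trend and robust moderation on log2(value + 1), two-sided, in a model with a term per group and a term for wave (12 residual degrees of freedom). P-values were adjusted by Benjamini and Hochberg's method over 16443 genes at a threshold of 0.05, in 19 comparisons. No filter on low values was applied, so all 9 measured members were tested. The fit was tested on simulated data. Coordinates and overlaps are from the GENCODE M21 annotation of mm10, which was matched by gene identifier.

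Members, gene lists and tests were chosen with earlier results of these data known. All measured members are named, with Sox2 and Sox17 as a check of the labels. Of the other pathway genes, at most 4 per comparison were eligible, those that passed with the largest change whose higher group averaged 20 or more. The text names a part of them, with some of their other comparisons, and both were chosen after their values were seen. Alternatives were pseudocounts of 0.1 and 10, a mean of at least 50, median centring, no wave term, the first wave alone, averaging the first-wave replicates, a block for the replicate number, and leaving out each library. The second wave alone was added after seeing the data. Figures were drawn with matplotlib 3.10.9.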

Additional observations from a re-analysis of the deposited data

Results flagged for a closer look

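Tests of the change in 2i minus the change in SL passed for 13 results. For FNV against NTC cells the differences on the log2 scale were -6.06 for Notch4, -5.17 for Dll1, -3.54 for Jag1, -1.89 for Hey1, 0.80 for Notch1 and 0.81 for Notch2. For FNV against SOX2 cells they were -2.58 for Notch4, -5.46 for Dll1, -1.67 for Jag1, -1.67 for Hey1 and 0.92 for Notch1. For SOX2 against NTC cells they were -3.49 for Notch4 and -1.86 for Jag1. Adjusted p-values of limma for these 13 lay between 1.3e-05 and 0.0249, and the libraries on which they rest are given with each gene above.

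Hey1 stood at 29 in SOX2 replicate 2 in 2i, while the other 3 SOX2 libraries in 2i stood at 23 to 24, a gap of 0.833 of the range of the group. In all 18 sets of 4 libraries (9 genes in the FNV and SOX2 groups in 2i) this was the only such gap, and chance flags about 1 in 20 sets.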

How the results depend on the processing

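Counts of members changed are given below, with the count of the reported fit in brackets. The share of all genes that changed was computed for the reported fit alone. Counts of the other fits therefore have no such share beside them and say nothing particular to the members. With the first wave alone they were 5 for SOX2 against NTC in 2i (1), 3 for SOX2 against NTC in SL (1) and 5 for SOX2 against NTC, 2i minus SL (2). With first-wave replicates averaged they were 2 for FNV against SOX2 in 2i (6), 2 for miniSOX against SOX2 in 2i (5), 0 for miniSOX against FNV in 2i (2), 1 for miniSOX against NTC in SL (5), and 0 for the other comparisons between lines in SL (1 for SOX2 against NTC, 4 for FNV against NTC, 3 for FNV against SOX2, 3 for miniSOX against SOX2 and 5 for miniSOX against FNV). They were 1 for 2i against SL in NTC (5) and in SOX2 cells (4), and 0, 2 and 0 for the differences between media of SOX2 against NTC (2), FNV against NTC (6) and FNV against SOX2 cells (5). A mean of at least 50 gave 3 for miniSOX against FNV in SL (5), where the call of Dll1 was lost and Hey1, with a lower mean, was not tested. Without the wave term there were 2 for miniSOX against SOX2 in 2i (5), 1 for miniSOX against FNV in 2i (2), 0 for FNV against NTC in SL (4), 3 for miniSOX against NTC in SL (5), 1 for FNV against SOX2 in SL (3), 2 for 2i against SL in SOX2 cells (4), and 3 each for the differences between media of FNV against NTC (6) and SOX2 (5). A pseudocount of 0.1 gave 1 for miniSOX against FNV in 2i (2), 0 for SOX2 against NTC in SL (1), 2 for FNV against NTC in SL (4), 3 for miniSOX against FNV in SL (5), 1 for SOX2 against NTC, 2i minus SL (2), and 3 for FNV against SOX2, 2i minus SL (5), and a pseudocount of 10 gave 2 for SOX2 against NTC in 2i (1) and 1 for miniSOX against FNV in 2i (2). The second wave alone gave 2 for FNV against NTC in 2i (6), 2 for miniSOX against NTC in 2i (5), 2 for FNV against SOX2 in 2i (6), 3 for miniSOX against SOX2 in 2i (5) and 0 for miniSOX against FNV in 2i (2).

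With the replicate number as a replicate block over the numbered libraries, the counts were 7 for SOX2 against NTC in 2i (1), 9 for miniSOX against NTC in 2i (5), 5 for miniSOX against FNV in 2i (2), 3 for SOX2 against NTC in SL (1), 8 for miniSOX against SOX2 in SL (3), 8 for miniSOX against FNV in SL (5) and 6 for SOX2 against NTC, 2i minus SL (2). The same libraries with no replicate block gave 7, 9, 5, 3, 8, 8 and 5 for these comparisons. Correlations of deviations from the group means between same-numbered libraries were -0.0917 to 0.0858 (median -0.00717, 28 pairs of 8 groups), so the numbers do not pair the libraries. These fits hold no wave term. In both fits, and without the wave term over all libraries, Notch3 in miniSOX against NTC cells in SL reversed to -0.10 from 0.99.

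Leaving out each library gave counts, lowest to highest, in 2i of 4 to 6 for miniSOX against NTC (5), 6 to 6 for FNV against NTC (6), 1 to 3 for SOX2 against NTC (1), 2 to 5 for miniSOX against SOX2 (5), 4 to 8 for FNV against SOX2 (6) and 1 to 3 for miniSOX against FNV (2). In SL they were 1 to 3 for miniSOX against NTC (5), 1 to 2 for FNV against NTC (4), 0 to 1 for SOX2 against NTC (1), 2 to 3 for miniSOX against SOX2 (3), 1 to 2 for FNV against SOX2 (3) and 0 to 1 for miniSOX against FNV (5). Between media they were 3 to 4 in miniSOX (4), 6 to 7 in FNV (6), 2 to 4 in SOX2 (4) and 2 to 6 in NTC cells (5). For the differences between media they were 2 to 2 for SOX2 against NTC (2), 4 to 7 for FNV against NTC (6) and 3 to 5 for FNV against SOX2 cells (5). Over all alternatives, the 78 member calls were computed again 1189 times, of which 972 passed in the same direction, 214 did not pass and 3 reversed. Median centring moved the median of all genes by at most 0.0369. Counts over the other pathway genes varied by more than 1.5 times in all 19 comparisons, for FNV against NTC in 2i from 10 to 25 (22) and for 2i against SL in FNV cells from 13 to 34 (30). The causes of these changes were not tested.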

Other observations

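As a description, the 3 genes of the table with the highest Pearson r to each member over the 21 libraries on log2(value + 1) were found among 14410 genes with a mean of at least 20. The points share lines, media and waves, so no test was made. For Notch4 they were Armcx4 (0.932), Dgkh (0.930) and Fut9 (0.930), and for Jag1 Mllt3 (0.956), Dgkh (0.956) and Armcx4 (0.955). Armcx4 and Dgkh thus appear for both of these members. For Hes1 they were Gss (0.972), Ltk (0.935) and Prdm14 (0.934), and for Jag2 Mapk13 (0.947), Dusp22 (0.946) and Cxcl16 (0.941). For Hey1 they were Ly6g6e (0.926), Rfxap (0.924) and Mthfs (0.901), and for Dll1 Gprasp1 (0.905), Mrpl34 (0.900) and Tnpo3 (0.894). For Notch1 the nearest gene was Gm45593 (0.869), for Notch2 Cep164 (0.903) and for Notch3 Zmat3 (0.918).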
